A study of Mus musculus with 20 samples.

Results

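The prostaglandin genes examined here were 10 genes picked by symbol from the 22090 genes of the count table, and all 10 were found. They comprise the phospholipase Pla2g4a, the cyclooxygenases Ptgs1 and Ptgs2, the prostaglandin E synthases Ptges, Ptges2 and Ptges3, the degrading enzyme Hpgd and the prostaglandin E receptors Ptger2, Ptger3 and Ptger4. RNA-seq was performed on 20 skin tissues from SKH-1 mice, a hairless strain, all female and 7 months old when obtained, namely 8 normal skin (NS), 8 actinic keratosis (AK) and 4 cutaneous squamous cell carcinoma (cSCC) samples. Of 8 mice, 4 were irradiated with simulated solar UV (daily by the sample labels, on fewer days by the paper) and 4 were not. Unirradiated mice gave NS only, whereas each irradiated mouse gave NS, AK of both grades and cSCC. The labels do not state which NS samples were irradiated or which tissues shared a mouse, so all tests treated tissues as independent, and p-values may be too small for the 8 AK, which came from 4 mice.

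Prostaglandins are lipid messengers made on demand. Cytosolic phospholipase A2 releases arachidonic acid from membranes, a cyclooxygenase converts it into prostaglandin H2, and a terminal synthase turns this into a specific prostaglandin such as prostaglandin E2. Ptgs1 is expressed constitutively in many tissues, whereas Ptgs2 is an immediate early gene induced in keratinocytes by ultraviolet light, cytokines and growth factors. Prostaglandin E2 acts on EP receptors at the surface of cells and is inactivated inside them by the 15-hydroxyprostaglandin dehydrogenase that Hpgd encodes.

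Sequence around the annotated start is shown for the 3 genes called between groups, so that it can be set beside their levels. Each run covers 250 bases before the start and the first 25 bases after it, from RefSeq on GRCm38.p6, plus strand, and capitals mark matches to the cAMP response element core TGACG (either strand), the E-box CACGTG and the TATA hexamer TATAAA (either strand). The windows were chr1:150099781-150100055 for Ptgs2, chr2:36230176-36230450 for Ptgs1 and chr8:56294302-56294576 for Hpgd.
Ptgs2: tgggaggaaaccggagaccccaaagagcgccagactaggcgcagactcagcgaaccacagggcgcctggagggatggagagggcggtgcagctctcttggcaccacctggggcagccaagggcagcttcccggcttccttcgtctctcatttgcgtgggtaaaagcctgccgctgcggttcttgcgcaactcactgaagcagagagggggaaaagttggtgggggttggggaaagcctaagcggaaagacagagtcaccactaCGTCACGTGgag
Ptgs1: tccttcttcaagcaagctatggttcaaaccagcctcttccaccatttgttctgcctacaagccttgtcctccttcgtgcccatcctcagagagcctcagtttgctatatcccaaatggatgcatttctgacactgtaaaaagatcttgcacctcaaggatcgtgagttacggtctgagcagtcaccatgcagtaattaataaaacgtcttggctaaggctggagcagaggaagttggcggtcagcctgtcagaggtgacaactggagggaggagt
Hpgd: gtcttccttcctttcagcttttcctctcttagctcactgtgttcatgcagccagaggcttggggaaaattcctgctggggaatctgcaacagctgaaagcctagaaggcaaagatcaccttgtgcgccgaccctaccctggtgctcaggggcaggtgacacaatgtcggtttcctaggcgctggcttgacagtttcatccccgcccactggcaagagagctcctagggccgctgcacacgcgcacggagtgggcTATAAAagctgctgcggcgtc
The Ptgs2 window held the cAMP response element core at bases 14 to 18 after the annotated start, and the E-box at bases 17 to 22 overlapped it. Where transcription begins was not measured, so these positions do not show that the matches are transcribed. Of 32851 mouse promoter windows of this length, 19.7% held the core, 6.68% the E-box and 13% the TATA hexamer. In the Hpgd window the TATA hexamer lay at bases 5 to 10 after the RefSeq start, which lies upstream of the GENCODE gene start at 56294585, so that the hexamer precedes the latter. None of the 3 motifs was found in the Ptgs1 window, which says only that these letters are not in it.

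The NS libraries held 1624325 to 6295575 counts, the AK libraries 867219 to 14055206 and the cSCC libraries 775750 to 7095102. Levels are given as CPM, counts scaled to a common library size after TMM scaling (which corrects for a few abundant genes taking a large share of a library), and 3 counts corresponded to between 0.225 and 3.78 CPM, a floor for counting error only. Keratinocyte transcripts were found in every sample, with none of 11 keratinocyte markers at 0, which does not give the share of keratinocytes. Of the 4 cSCC libraries, 3 stood far apart. In cSCC replicate 18, 5 erythrocyte genes took 46.9% of the counts. In replicate 20 the 10 lung markers summed to 36370 CPM, against at most 135.5 CPM in NS and AK, and in replicate 21 the 12 heart muscle markers summed to 70880 CPM, against at most 92.1 CPM in NS and AK. Keratinocyte markers summed to 5732 and 3964 CPM in replicates 20 and 21, below the lowest NS sample at 8388 CPM. Results for cSCC are therefore also given without these libraries. In bulk tissue, fewer cells of a type and less RNA per cell cannot be told apart.

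Which of these genes differ between the stages was asked with edgeR's quasi-likelihood test, and a gene was called at a Benjamini-Hochberg adjusted p under 0.05 over all genes tested with a fold change above 1.5 or below 0.67. All 10 genes passed the filter on low counts in each comparison. For AK vs. NS, 1 of the 10 was called, Ptgs2 with a higher level in AK, where 4.64% of the 11677 genes tested were called in either direction and 2.26% as higher. For cSCC vs. NS, Ptgs2 was called higher and Ptgs1 lower, where 19.3% of 12097 genes were called. For cSCC vs. AK, Hpgd alone was called, as lower, where 24.4% of 12032 genes were called. The shares of the 10 genes called were thus near or below the background in both comparisons with cSCC. The groups did not overlap for 1 of the 10 genes, Ptgs2 in cSCC relative to NS. For AK vs. NS, 0.394% of all genes were separated upwards and 0.128% downwards, for cSCC vs. NS 2.7% and 5.73%, and for cSCC vs. AK 3.33% and 6.84%. At an unadjusted p under 0.05, 4, 3 and 1 of the 10 genes passed in the 3 comparisons, where 24.6%, 34% and 38.4% of all genes did. Median log2 fold changes of the 10 genes were 0.25, -0.07 and -0.21 in the 3 comparisons, and those of all genes tested were -0.04, 0.14 and 0.17. Scaling by library size alone in place of TMM shifted the median of all genes by -0.1, -0.31 and -0.26, and the share of calls that were higher went from 48.7, 60.4 and 65.8% to 26.9, 31.9 and 43.0%, and it was 32.9% with upper quartile factors for AK vs. NS, so directions of small differences are relative to the scaling.

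**Figure D1:**
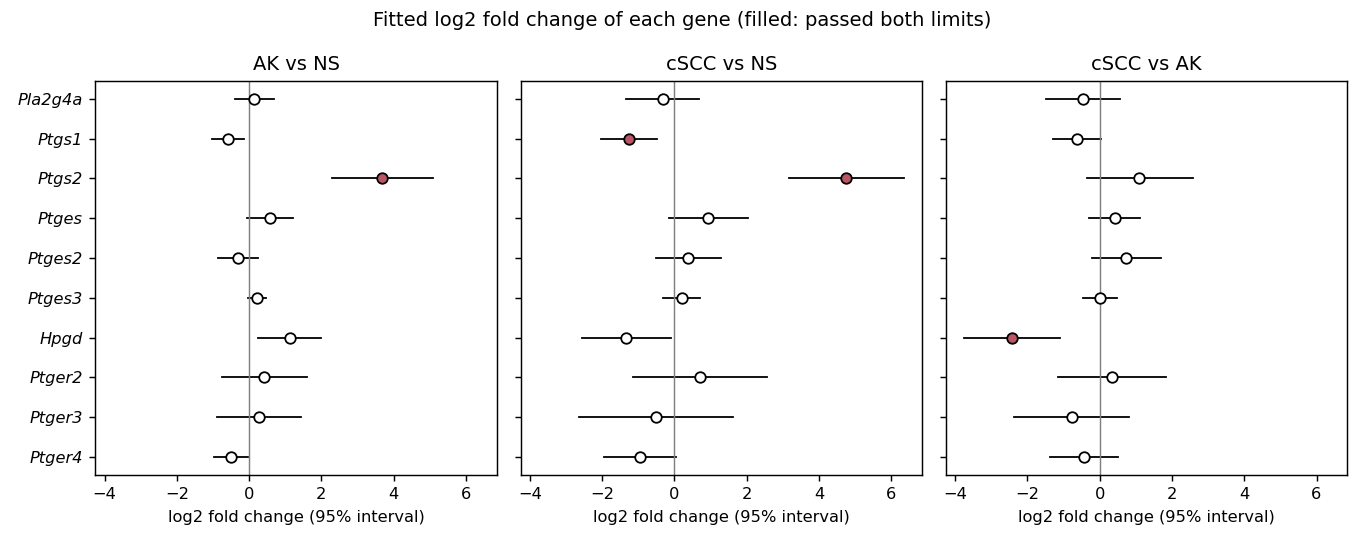
Fitted log2 fold change of each of the 10 genes (horizontal axis) with its 95% interval, for the 3 pairs of groups; filled points passed both the adjusted p and the fold change limit. Ptgs2 stands at 3.69 and 4.76 relative to NS, Ptgs1 at -1.25 in cSCC relative to NS and Hpgd at -2.43 in cSCC relative to AK.

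Ptgs2 (ENSMUSG00000032487.8, chromosome 1, 150100031 to 150108227 on GRCm38, plus strand, protein coding), the inducible cyclooxygenase known as COX-2, was nearly silent in NS. Its level in NS ranged from 0 to 8.83 CPM with a median of 2.13 CPM, and NS replicates 4 and 6 had no counts, which allows up to 1.02 and 1.69 CPM. In AK it ranged from 5.31 to 109.7 CPM with a median of 16.9 CPM. The 4 cSCC replicates 18 to 21 had 22.2, 159.9, 54.6 and 29.6 CPM. Of the AK samples 7 of 8 were above every NS sample, and AK replicate 10 alone lay below the highest NS sample, whereas all 4 cSCC samples were above all NS samples. The means were 2.47 ± 2.79 CPM in NS and 33.8 ± 34.6 CPM in AK (SD, n = 8 each), and the mean in cSCC was 66.6 ± 63.7 CPM (SD, n = 4).

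Relative to NS, Ptgs2 was 12.9-fold higher in AK (log2 fold change 3.69 ± 0.67 SE, edgeR adjusted p = 0.0151) and 27.1-fold higher in cSCC (log2 fold change 4.76 ± 0.74 SE, edgeR adjusted p = 0.00167). Both calls held with each sample left out in turn, with log2 fold changes of 3.13 to 4.24 for AK and 3.86 to 5.30 for cSCC. Without cSCC replicates 20 and 21 the value for cSCC was 5.19 (edgeR adjusted p = 0.00288), and with cSCC replicate 19 as the only tumor it was 5.96 (edgeR adjusted p = 0.00102, with the lone sample assumed to vary like NS). Between cSCC and AK the log2 fold change was 1.10, with a 95% interval of -0.36 to 2.57, and it did not pass (edgeR adjusted p = 0.252). This value rested on cSCC replicate 19, without which it was 0.19. The spread within AK was wide, as replicates 15 and 16 had 57.8 and 109.7 CPM while 4 others had between 15.2 and 18 CPM.

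Neutrophils can express Ptgs2. The summed level of 8 neutrophil markers was 81.9 to 5796 CPM in NS, 632 to 3109 CPM in AK and 2310 to 14780 CPM in cSCC. For AK vs. NS, 0 of 6 tested markers were called. For cSCC vs. NS 3 of 8 were called higher, and for cSCC vs. AK 5 of 8 were. No neutrophil marker was at 0 in any cSCC sample. The list holds S100a8 and S100a9, and the paper measured S100a9 in keratinocyte and cSCC cell lines too. The sum is therefore not a measure of neutrophils alone. NS replicate 7, with the highest sum of any NS sample, had 2.23 CPM of Ptgs2, and NS replicate 8, with the highest Ptgs2 in NS, had a sum of 880.1 CPM. These are single NS samples, given as a description only. Endothelial markers were also higher in cSCC, as 9 of 10 were called higher relative to NS and 10 of 10 relative to AK. Of all genes tested, 11.7% and 16% were called higher in these comparisons. Endothelial sums were 47.7 to 132.8 CPM in NS and 51.3 to 124.7 CPM in AK. They were 148.6, 178.4, 270.8 and 887.2 CPM in cSCC replicates 18 to 21, with no endothelial marker at 0. The highest sums were thus in replicates 20 and 21, the libraries with lung and heart muscle transcripts. The marker calls are given with all cSCC libraries only. The part of neutrophils and of endothelial cells in the Ptgs2 difference was not tested.

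Ptgs1 (ENSMUSG00000047250.13, chromosome 2, 36230426 to 36252272, plus strand), the constitutive cyclooxygenase COX-1, had the opposite order of levels. It ranged from 106.0 to 268.6 CPM in NS (median 142.8 CPM) and from 68.9 to 173.5 CPM in AK (median 101.0 CPM). In cSCC replicates 18 to 21 it had 52.1, 119.1, 55.8 and 38.5 CPM. Replicates 18, 20 and 21 were below every NS and every AK sample, and replicate 19 lay within both ranges. Ptgs1 was 2.38-fold lower in cSCC than in NS (log2 fold change -1.25 ± 0.36 SE, edgeR adjusted p = 0.0271), where 7.65% of genes were called lower. The call was lost without replicate 20 (-1.19, edgeR adjusted p = 0.0593) or without replicate 21 (-1.06, edgeR adjusted p = 0.0664), which are the libraries with lung and heart muscle transcripts and few keratinocyte transcripts. Without both it was -0.90 (edgeR adjusted p = 0.179), with replicate 19 as the only tumor it was -0.46 (edgeR adjusted p = 0.58), and limma voom did not call it either (-1.13, adjusted p = 0.0653). In replicate 18 keratinocyte markers summed to 19400 CPM, which were 0.986% of its counts against 0.927% in the lowest NS sample. Of 11 keratinocyte markers, 1 was called higher and 5 lower for cSCC vs. NS, where 11.7% and 7.65% of all genes were. For cSCC vs. AK, 0 were called higher and 5 lower, where 16% and 8.34% of all genes were. The part of keratinocyte content in the Ptgs1 difference, and in the lower levels of other genes in cSCC given below, was not tested. For AK vs. NS the log2 fold change was -0.58 with an interval of -1.02 to -0.13, which did not pass (edgeR adjusted p = 0.107), although limma voom called it (-0.68, adjusted p = 0.0306). For cSCC vs. AK it was -0.63 (interval -1.30 to 0.03, edgeR adjusted p = 0.149), and -1.08 and called without cSCC replicate 19 (edgeR adjusted p = 0.0187).

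**Figure D2:**
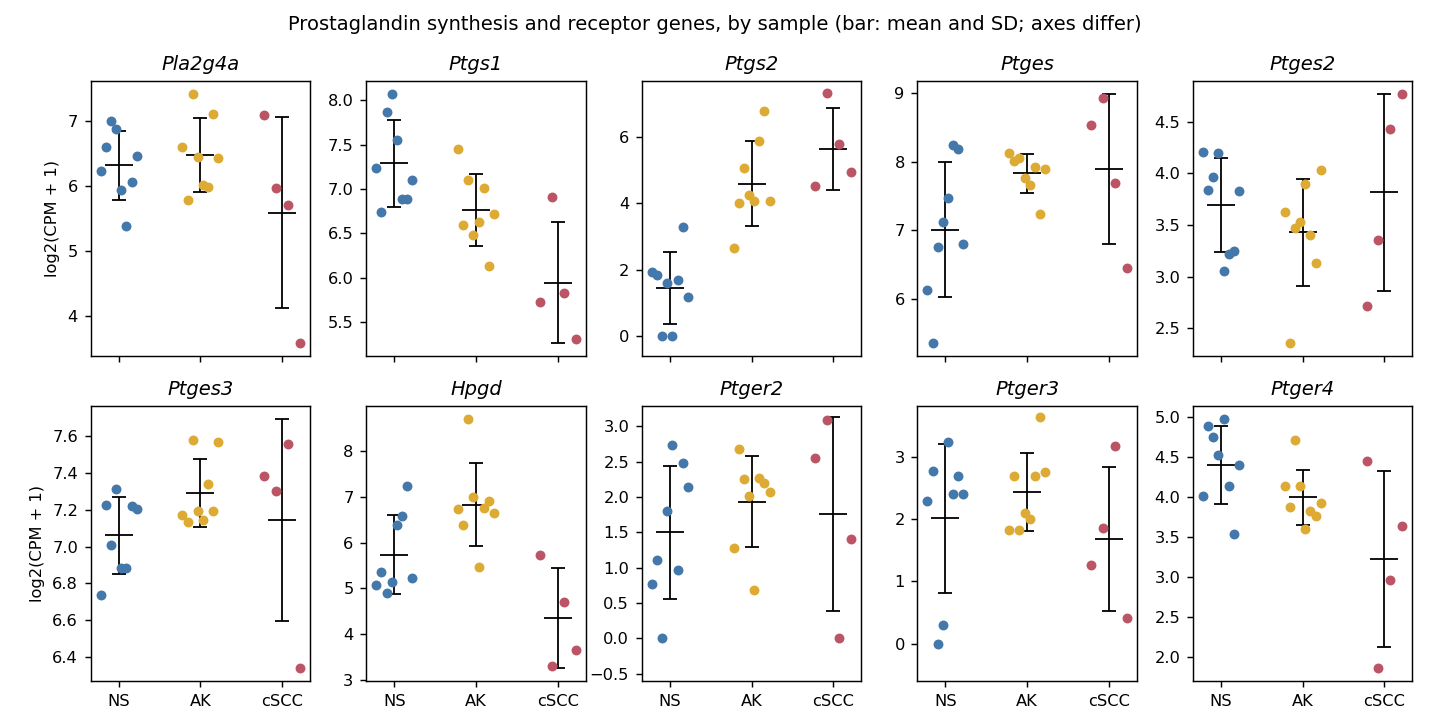
Level of each of the 10 genes in every sample on the log2(CPM + 1) scale, with points for samples in NS, AK and cSCC and bars for the mean and SD of each group; vertical axes differ between genes and do not start at 0. Ptgs2 lies at or below 8.83 CPM in NS and at or above 22.2 CPM in cSCC, and 1 AK sample has a much higher Hpgd level (419 CPM) than the 7 others.

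Pla2g4a (ENSMUSG00000056220.14, chromosome 1, 149829618 to 149961290, minus strand), the cytosolic phospholipase A2 that supplies arachidonic acid, did not pass in any comparison. Its level was 83.3 ± 29.1 CPM in NS and 94.1 ± 40.2 CPM in AK (SD, n = 8 each), and 64.8 ± 51.9 CPM in cSCC (SD, n = 4). The groups overlapped, and the cSCC samples alone spread from 10.9 CPM in replicate 21 to 135.4 CPM in replicate 18. The interval for AK vs. NS, -0.39 to 0.68 on the log2 scale, was narrower than that for cSCC vs. NS, -1.34 to 0.69.

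Among the synthases of prostaglandin E2, none passed in any of the comparisons. Ptges (ENSMUSG00000050737.13, chromosome 2, 30889471 to 30929863, minus strand) encodes the inducible microsomal synthase that is coupled to COX-2, and a processed pseudogene, Gm13400, lies within its span. It ranged from 39.7 to 302.9 CPM in NS (median 124.2 CPM) and from 149.8 to 278.9 CPM in AK (median 238.2 CPM), and it had 368.8, 486.9, 204.8 and 86.2 CPM in cSCC replicates 18 to 21. AK filled the upper part of the NS range without leaving it, and cSCC replicates 18 and 19 exceeded every NS and AK sample. The log2 fold change was 0.57 for AK vs. NS (interval -0.07 to 1.21), 0.94 for cSCC vs. NS (interval -0.15 to 2.03) and 0.41 for cSCC vs. AK (interval -0.30 to 1.12), with edgeR adjusted p = 0.261, 0.212 and 0.388. Without cSCC replicates 20 and 21 the difference between cSCC and AK was 0.97 and was called (edgeR adjusted p = 0.0158).

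Ptges3 (ENSMUSG00000071072.12, chromosome 10, 128058954 to 128077272), the cytosolic synthase that is also the Hsp90 co-chaperone p23, varied least of the 10 genes in NS and AK. Its mean was 133.8 ± 19.1 CPM in NS, 156.8 ± 21.2 CPM in AK (SD, n = 8 each) and 147.6 ± 47.0 CPM in cSCC (SD, n = 4), and the interval for AK vs. NS was -0.04 to 0.47 on the log2 scale. A processed pseudogene, Ptges3-ps, could share its reads. Ptges2 (ENSMUSG00000026820.5, chromosome 2, 32395896 to 32405772) encodes a further microsomal synthase and was at 12.5 ± 4.02 CPM in NS, 10.3 ± 3.47 CPM in AK (SD, n = 8 each) and 15.4 ± 9.65 CPM in cSCC (SD, n = 4). The highest cSCC values were those of replicates 21 and 20, at 26.3 and 20.5 CPM, the libraries with heart muscle and lung transcripts, and the 2 others had 5.56 and 9.23 CPM. Without replicates 20 and 21 the sign for cSCC vs. NS turned from 0.38 to -0.71, neither of which passed.

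Hpgd (ENSMUSG00000031613.9, chromosome 8, 56294585 to 56321043, plus strand) encodes the enzyme that begins prostaglandin breakdown, and it was highest in AK and lowest in cSCC. It ranged from 28.8 to 149.8 CPM in NS (median 38.1 CPM) and from 42.8 to 418.7 CPM in AK (median 106.4 CPM), and cSCC replicates 18 to 21 had 52.1, 8.79, 25.03 and 11.6 CPM. Replicates 19, 20 and 21 lay below every NS and AK sample, while replicate 18 lay within the NS range and above 1 AK sample, replicate 14. Hpgd was 5.39-fold lower in cSCC than in AK (log2 fold change -2.43 ± 0.62 SE, edgeR adjusted p = 0.0132), where 8.34% of genes were called lower. The call held with each single sample left out (log2 fold change -3.21 to -2.03) and with replicate 19 as the only tumor (-3.93, edgeR adjusted p = 0.0332), but not without replicates 20 and 21 together (-2.14, edgeR adjusted p = 0.094) or with limma voom (-2.47, adjusted p = 0.0635).

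Relative to NS, Hpgd had a log2 fold change of 1.12 in AK (interval 0.24 to 2.00) and -1.33 in cSCC (interval -2.56 to -0.10), with edgeR adjusted p = 0.112 and 0.119, so neither passed. Single samples decided the value for AK. Without AK replicate 12 it was 0.63, and without NS replicate 8, the highest NS sample, it was 1.43 and called (edgeR adjusted p = 0.0374). DESeq2 also called it (log2 fold change 1.14, adjusted p = 0.0483). For cSCC, leaving out replicate 18, the library rich in erythrocyte transcripts, gave -2.04 and a call (edgeR adjusted p = 0.0258).

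None of the receptor genes passed in any comparison. Ptger4 (ENSMUSG00000039942.15, chromosome 15, 5206661 to 5244187, minus strand), which encodes the EP4 receptor that raises cAMP, was the best measured, with 21.1 ± 6.85 CPM in NS, 15.4 ± 4.39 CPM in AK (SD, n = 8 each) and 10.4 ± 7.81 CPM in cSCC (SD, n = 4). In cSCC replicates 18 to 21 it had 20.8, 2.64, 6.83 and 11.4 CPM, the 2 lowest of which were below all NS and AK samples and rested on 6 counts each. The log2 fold change was -0.50 for AK vs. NS (interval -0.98 to -0.02, edgeR adjusted p = 0.188) and -0.96 for cSCC vs. NS (interval -1.95 to 0.04, edgeR adjusted p = 0.162). Without cSCC replicate 18 it was -1.49 for cSCC vs. NS and was called (edgeR adjusted p = 0.0398). Ptger4 overlaps Ttc33 on the opposite strand, and because the strand used in counting is not stated, reads of the 2 genes could be mixed.

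Ptger2 (ENSMUSG00000037759.6, chromosome 14, 44988195 to 45003820), the gene of the EP2 receptor that also raises cAMP, had 66 counts over all 8 NS samples, 106 over the AK samples and 34 over the 4 cSCC samples. It ranged from 0 to 5.63 CPM in NS, from 0.603 to 5.42 CPM in AK and from 0 to 7.47 CPM in cSCC. An antisense gene, Gm17173, overlaps it. Ptger3 (ENSMUSG00000040016.16, chromosome 3, 157566892 to 157645888), the gene of the EP3 receptor that lowers cAMP, had 123, 163 and 17 counts in the same groups, and it ranged from 0 to 8.45 CPM in NS, from 2.52 to 11.4 CPM in AK and from 0.331 to 7.96 CPM in cSCC. The 95% intervals for cSCC vs. NS spanned -1.16 to 2.55 for Ptger2 and -2.65 to 1.63 for Ptger3 on the log2 scale.

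To compare genes with each other, CPM were divided by the length of all annotated exons in kb. In NS, the median level per kb was highest for Ptges3 (61.9 CPM per kb), followed by Ptgs1 (36.8), Ptges (31.6), Hpgd (22.7), Pla2g4a (12.6), Ptger4 (3.16), Ptges2 (2.62), Ptger3 (0.753), Ptgs2 (0.465) and Ptger2 (0.350), all in CPM per kb. Neighbours in this order overlapped in their ranges over samples, except Pla2g4a and Ptger4. Ptgs2 stood at the ninth place in NS, the sixth in AK (3.69 CPM per kb) and the fifth in cSCC (9.19 CPM per kb). In cSCC it overlapped its neighbours Hpgd (10.9 CPM per kb) and Pla2g4a (8.82 CPM per kb), and Ptges (73.0 CPM per kb) and Ptges3 (72.8 CPM per kb) led. These are medians over samples, given as a description.

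The balance between genes within a sample, taken as a ratio of CPM, is free of the scaling between libraries. Ratios of CPM are not divided by gene length, so they are compared between groups only. Ptgs2 was at most 0.0751 times Ptgs1 in NS, with a median of 0.0141. The median ratio was 0.182 in AK and 0.874 in cSCC, and the highest ratios were those of AK replicate 16 (1.59) and cSCC replicate 19 (1.34), the only samples with more Ptgs2 than Ptgs1 per kb as well. For Ptgs2 over Hpgd, the maker over the breaker of prostaglandins, the ratio was at most 0.087 in NS and 0.915 in AK, and it was 0.427, 18.2, 2.18 and 2.56 in cSCC replicates 18 to 21. Replicates 19, 20 and 21 were thus above all NS and AK samples. Per kb, Ptgs2 exceeded Hpgd in replicate 19 alone (34.9 against 5.22 CPM per kb), and it was below Hpgd in replicate 20 (11.9 against 14.9 CPM per kb) and replicate 21 (6.46 against 6.88 CPM per kb). Ptges over Hpgd had similar medians in NS (2.58) and AK (2.30) and was 7.08 or more in each cSCC sample, above the highest AK sample at 4.68. These ratios combine genes compared above, and no test was run on them.

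**Figure D3:**
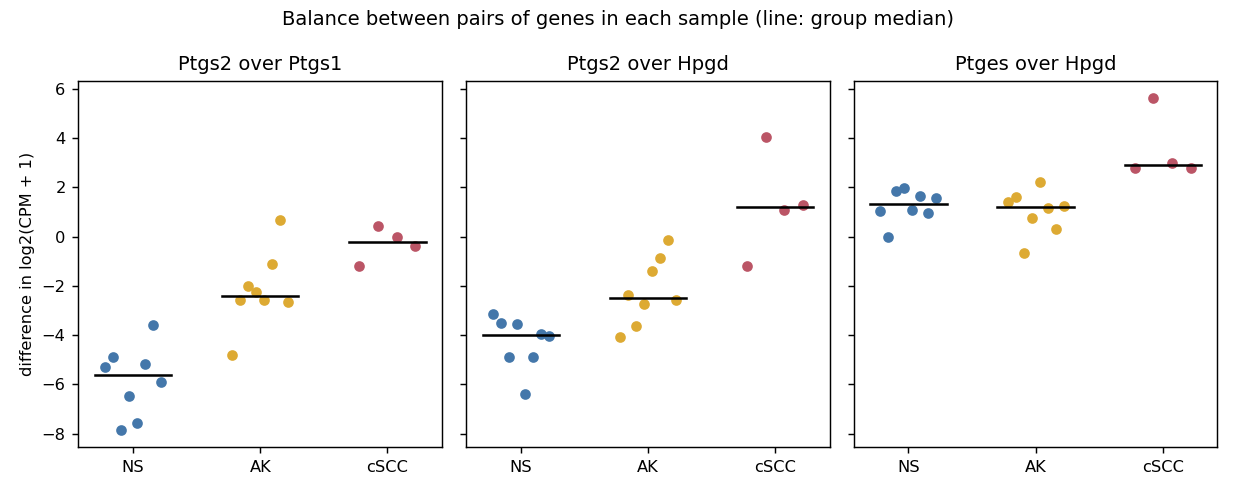
Difference in log2(CPM + 1) between pairs of genes in each sample of NS, AK and cSCC, with a line at the group median; values are not divided by gene length, so 0 does not mark equal transcript numbers. Through the added 1, plotted values depend on scaling where a gene is near 0, as Ptgs2 is in NS. The median for Ptgs2 over Ptgs1 moves from -5.60 in NS to -2.40 in AK and -0.20 in cSCC, and 3 of 4 cSCC samples lie above all NS and AK samples for Ptgs2 over Hpgd.

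Other genes of the pathway were taken from 6 lists with 59 genes in the table. For AK vs. NS, 0 of 39 tested genes were called higher and 2 lower, where 2.26% and 2.38% of all genes were. For cSCC vs. NS, 7 of 41 were higher and 4 lower, where 11.7% and 7.65% of all genes were. For cSCC vs. AK, 9 of 39 were higher and 7 lower, where 16% and 8.34% of all genes were. The medians of the log2 fold change were -0.16, 0.26 and -0.10, beside -0.04, 0.14 and 0.17 over all genes tested.

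Of the other phospholipases A2, the epidermal secreted Pla2g2f was lower in AK than in NS (139.5 ± 49.6 against 268.9 ± 122 CPM, SD, n = 8 each, log2 fold change -0.96, edgeR adjusted p = 0.0402) and lower again in cSCC, at 16.8 ± 16.04 CPM (SD, n = 4). Its log2 fold change was -4.01 in cSCC relative to NS and -3.04 relative to AK (edgeR adjusted p = 0.00246 and 0.00394), and the groups with cSCC did not overlap. Both calls in cSCC held without each cSCC sample in turn and without replicates 20 and 21 together, whereas the call in AK held in 5 of 16 fits with 1 sample left out (log2 fold change -1.10 to -0.78). Pla2g4f fell in cSCC relative to NS (-2.42) and AK (-2), the first lost without replicates 20 and 21, the second likewise and also without replicate 19 (-1.80, edgeR adjusted p = 0.0515). Pla2g4e fell relative to AK (-1.13), but the call held in only 3 of 12 fits with 1 sample left out, AK samples included (log2 fold change -2.0 to -0.89). Pla2g16 was called higher in cSCC than in AK (1.54), and this held in 4 of 12 such fits (0.43 to 1.84), the lowest value being that without replicate 21.

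Hpgds, the prostaglandin D synthase of haematopoietic cells, fell in cSCC relative to AK by a log2 fold change of -1.99 (edgeR adjusted p = 0.0206), with 227 ± 115 CPM in AK (SD, n = 8) and 102.8, 39.1, 70.5 and 6.29 CPM in cSCC replicates 18 to 21. All 4 cSCC samples lay below all AK samples, and without replicate 19 the value was -1.87 (edgeR adjusted p = 0.0515). Ptgdr, a receptor of prostaglandin D2, was at 0 in each tumor library, with 135 counts over the AK samples. With the 4 cSCC libraries pooled, Ptgdr was at least 13-fold lower in cSCC than in AK when 3 counts over the group are used as the floor. Replicate 21 was the deepest of these libraries, with 6046169 counts after TMM scaling against at most 2275807 in the others. The bound would be smaller without it. Ptgdr passed the filter on low counts for cSCC vs. AK only through the AK samples, so its call and the repeats of that call add no support. The call held in 12 of 12 fits with 1 sample left out and under 9 of 11 alternatives. For cSCC vs. NS, Ptgdr did not pass the filter and was not tested, with a mean of 1.86 CPM in NS. Ptgds, the lipocalin-type prostaglandin D synthase, was called higher in cSCC than in NS only through replicate 21, which had 1062 CPM where the 3 other tumors had at most 6.83 CPM, and without it the log2 fold change was -0.26. The same library, which holds heart muscle transcripts, had 361.6 CPM of Ptgr2, a prostaglandin reductase, and its calls against NS and AK were also lost without it (0.42 and 0.21), the latter also without AK replicate 12 (1.53). Akr1b3, an aldose reductase with prostaglandin F synthase activity, was 2.84-fold higher in cSCC than in NS (edgeR adjusted p = 0.00453), and every cSCC sample was above all NS samples, but the call was lost without replicates 20 and 21, and the call against AK (1.22) without replicate 21.

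Of 11 tested genes of the lipoxygenase and leukotriene list, 1 was called higher and 2 lower for cSCC vs. NS, where 11.7% and 7.65% of all genes were. For cSCC vs. AK, 2 were called higher and 2 lower, where 16% and 8.34% of all genes were. Counts this small cannot be told from the shares over all genes. Alox12e, an epidermal lipoxygenase, was at 98.4 ± 70.1 CPM in NS, 29.3 ± 19.7 CPM in AK (SD, n = 8 each) and 5.56, 0, 2.28 and 0 CPM in cSCC replicates 18 to 21, with log2 fold changes of -1.72 for AK vs. NS and -6.05 for cSCC vs. NS (edgeR adjusted p = 0.0419 and 0.00376). The first held in 4 of 16 fits with 1 sample left out, and the second without each cSCC sample. Aloxe3, which serves barrier lipid formation, was lower in cSCC than in NS and AK (-2.98 and -1.94), and the second call held in 7 of 12 fits with 1 sample left out (-2.50 to -1.64). The leukotriene B4 receptor gene Ltb4r1 was higher in cSCC than in NS and AK (1.65 and 1.86), and Lta4h, the hydrolase that makes leukotriene B4, was higher than in AK (0.72). The highest Ltb4r1 level was that of replicate 19, at 67.7 CPM, and without that sample the Ltb4r1 values were 0.87 relative to NS and 1.09 relative to AK, neither called. The Ltb4r1 call relative to NS and the Lta4h call each held in 7 of 12 fits with 1 sample left out, so samples of NS and AK also ended them.

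Of 9 ligands known to induce Ptgs2, none of the 6 tested was called by edgeR for AK vs. NS, where 1 passed at an unadjusted p under 0.05. In cSCC relative to NS, 3 of 8 tested ligands were called higher and 5 were not called, where 11.7% of all genes were called higher. Those called were Il1b, Hbegf and Areg, with log2 fold changes of 5.24, 1.80 and 2.39. Relative to AK, these and Tnf (2.70) were called higher. They were 4 of 7 tested, with 3 not called, where 16% of all genes were called higher. Il1b, which encodes interleukin-1 beta, was at 22.4 ± 9.88 CPM in NS, 53.0 ± 50.0 CPM in AK (SD, n = 8 each) and 493.9, 1453, 1154 and 148.7 CPM in cSCC replicates 18 to 21. Cells of the neutrophil list also express Il1b, and their part was not tested. Replicate 19 was the highest of the 4 cSCC samples for Il1b, Hbegf, Areg, Tnf and Ptgs2 alike, and without it the calls of Hbegf, Areg and Tnf were lost while those of Il1b held. Leaving out AK samples also ended the Hbegf call relative to AK, which held in 5 of 12 fits. Replicate 19 was also the only cSCC library without a large excess of erythrocyte, lung or heart muscle transcripts. Its heart muscle sum of 112.5 CPM was still above the highest NS and AK sample, at 92.1 CPM. A link between these ligands and Ptgs2 was not tested.

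**Figure D4:**
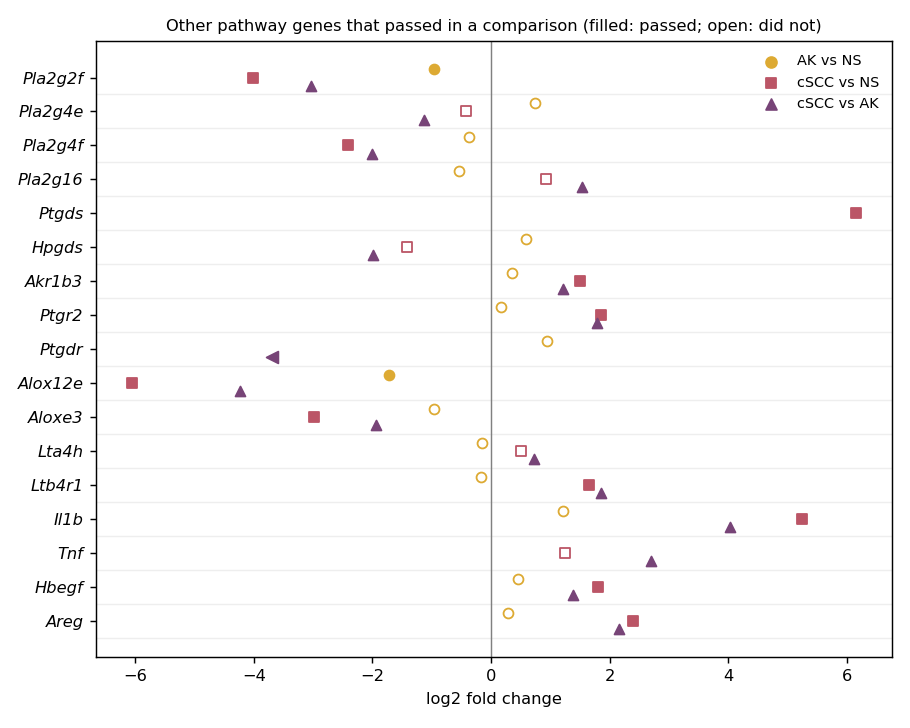
Log2 fold change (horizontal axis) of the 17 other pathway genes called in at least 1 comparison; circles stand for AK vs. NS, squares for cSCC vs. NS and triangles for cSCC vs. AK, filled where the gene was called. Ptgdr, at 0 in all cSCC samples, is drawn at its bound of -3.70 with a triangle pointing left, and Ptgds at 6.16 rests on cSCC replicate 21.

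Among 8981 genes with a mean of at least 10 CPM, those most like Ptgs2 in rank order over the 20 samples were Elk3 (Spearman correlation 0.92), Itgb1 (0.91), Prelid2 (0.89), Tspan3 (0.88) and Dsc2 (0.88). Dsc2, which encodes a desmocollin, had median levels of 20.9 CPM in NS, 78.6 CPM in AK and 148 CPM in cSCC. Of the other prostaglandin genes, the nearest to Ptgs2 was Ptges3 at place 989 (0.45) and the farthest was Ptger4 at place 8505 (-0.65), and Ptger2 and Ptger3 were too low to be ranked. For Hpgd the closest were Alkbh5 (0.92), Aebp2 (0.91), Bach1 (0.90), Ttll7 (0.89) and Osbpl8 (0.89), and Ptges stood at place 1713 (0.41). These correlations describe the order of 20 samples that differ in group and depth, and no test was run on them.

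**Figure D5:**
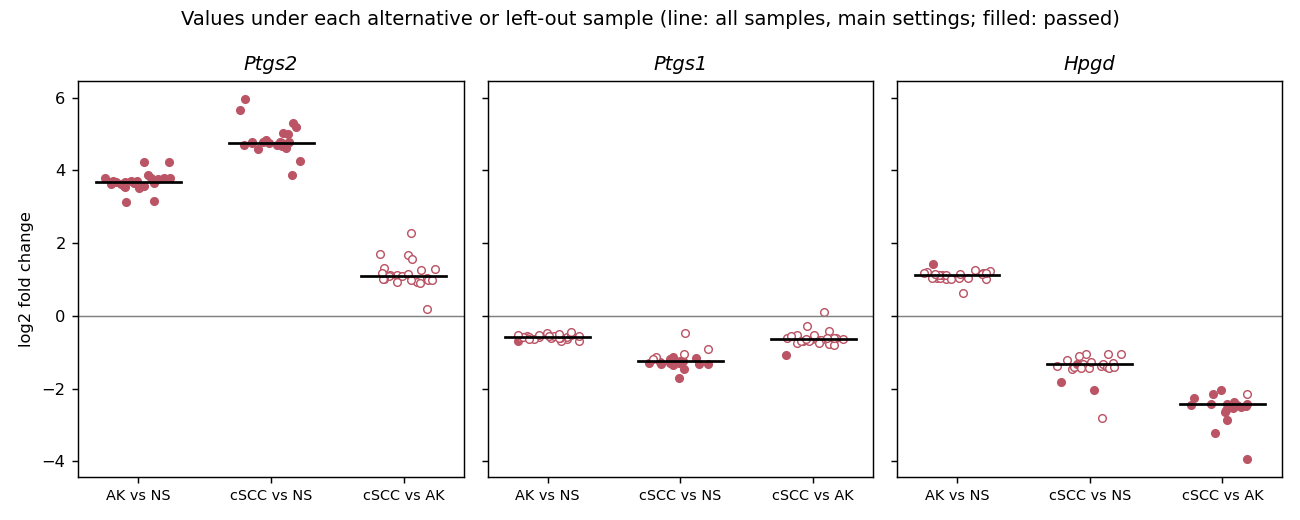
Log2 fold change of Ptgs2, Ptgs1 and Hpgd in each comparison under every alternative setting and with samples left out (points, filled where called), with a line at the value from all samples. Points of Ptgs2 relative to NS stay above 3.10 and are all filled, whereas the Ptgs1 and Hpgd points change between filled and open.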

How the data were processed

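RNA-seq of 20 SKH-1 mouse skin tissues was used, 8 NS, 8 AK and 4 cSCC, grouped by the sample titles. The authors deposited 1 table of raw counts per gene symbol without normalization. By the paper, reads were trimmed with Trimmomatic, aligned to GRCm38 with HISAT2 and quantified with StringTie, whereas the submitters' processing notes name Trimmomatic 0.36, HISAT2 2.0.5, featureCounts 1.5.2 and the builds mm9 and hg19, so the counter, the build and the strand setting are uncertain. Gene coordinates and exon lengths are from GENCODE M21 (GRCm38) and serve as labels.

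CPM used TMM factors over all samples. Each pair of groups was fitted alone with edgeR 4.0.16 in R 4.3.3 (quasi-likelihood test, TMM, filterByExpr), with Benjamini-Hochberg adjustment over all genes tested. The standard error is the log2 fold change divided by the square root of F, and intervals are 95%. The test was also run on simulated counts drawn as independent samples. Such counts cannot check the effect of tissues that share a mouse or of lung and heart muscle transcripts in cSCC libraries. Alternatives were library size alone, upper quartile factors, DESeq2 1.42.0, limma 3.58.1 voom with sample weights, other count filters, 1 fit of all samples, no fold change limit, the study's unadjusted rule, each sample left out, and cSCC replicates 20 and 21 left out. Leaving out replicates 18, 20 and 21 was chosen after the data were examined. The genes, lists and tests were chosen with earlier results of these data known. Named genes were the 10 genes, pathway genes called in any comparison, and the 5 genes closest in rank to Ptgs2 and to Hpgd. Tables and figures were made in Python 3.11.15.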

Additional observations from a re-analysis of the deposited data

Results flagged for a closer look

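Among the 30 sets of values given by 10 genes in 3 groups, 1 sample stood apart from its group by Dixon's test on log2(CPM + 1). Hpgd was at 419 CPM in AK replicate 12, where the 7 other AK samples had 42.8 to 127 CPM, and the gap took 0.527 of the range, just past the critical value for 8 samples. Chance alone sets apart about 1 in 20 such groups. AK replicate 12 was the smallest AK library, with 867219 counts in total, and the Hpgd level rested on 332 counts.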

How the results depend on the processing

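No paired analysis was possible because the labels give the groups no shared replicate numbers. The Ptgs2 calls against NS held under every alternative run and without each sample. For AK vs. NS, 1 of the 10 genes was called, against 2 with DESeq2, 2 with limma voom and 3 under the study's unadjusted rule (1 to 2 without single samples). The 2 pathway genes called became 7, 5 and 9 under these settings and 0 with no count filter or with all samples in 1 fit (0 to 5 without single samples). For cSCC vs. NS, 2 of the 10 genes became 4 with library size alone, 1 with limma voom, 4 under the study's rule and 1 without cSCC replicates 20 and 21 (1 to 4 without single samples), and 11 pathway genes became 18 under the study's rule (9 to 16 without single samples). For cSCC vs. AK, 1 of the 10 genes became 0 with limma voom, 2 under the study's rule and 3 with replicate 19 as the only tumor (1 to 2 without single samples), and 16 pathway genes became 8 with limma voom and 10 without replicates 20 and 21 (9 to 21 without single samples). Over all genes, 542 calls for AK vs. NS became 1047 with DESeq2, 1041 with limma voom, 1827 under the study's rule and 9 with all samples in 1 fit (164 to 920 without single samples), 2340 for cSCC vs. NS became 1308 and 2935 for cSCC vs. AK became 1270 with limma voom. Without replicates 20 and 21 they were 1558 and 1584, and without single samples 1695 to 3181 and 1787 to 3994.

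Signs turned for values that had not passed, and for 2 called pathway genes, as follows, and the causes were not tested. Pla2g4a turned to -0.07 for AK vs. NS with limma voom (-0.02 to 0.26 without single samples), and without replicates 20 and 21 to 0.26 for cSCC vs. NS (-1.02 to 0.03 without single samples) and 0.13 for cSCC vs. AK. Ptges2 turned to -0.71 for cSCC vs. NS and -0.39 for cSCC vs. AK without replicates 20 and 21, and to -0.44 and -0.16 with replicate 19 as the only tumor (-0.08 to 0.63 for cSCC vs. NS without single samples). Ptges3 turned to -0.07 for cSCC vs. NS with library size alone, and for cSCC vs. AK to -0.19 with library size alone, -0.15 with no count filter, -0.09 with all samples in 1 fit and -0.03 under the study's rule (-0.13 to 0.14 without single samples). Ptger3 turned to 0.36 for cSCC vs. NS with limma voom, Ptger2 to -0.09 for cSCC vs. AK under the study's rule (-0.35 to 0.66 without single samples), and with replicate 19 as the only tumor Ptgs1 turned to 0.10 and Pla2g16 to -0.29 for cSCC vs. AK. Ptgds for cSCC vs. NS turned to -1.16 without replicates 20 and 21 and to -2.14 with replicate 19 as the only tumor (-0.26 to 6.58 without single samples).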
